A study of Mus musculus with 6 samples.

Results

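The Hox genes of C2C12 cells, a mouse muscle cell line that grows as myoblasts and can be made to fuse into myotubes, were compared between cells labelled wild-type and cells labelled Gmppb-KO. Gmppb encodes an enzyme subunit that makes GDP-mannose. The members were all protein-coding rows of the deposited table whose symbol is Hox, a letter from a to d and digits, which gave 40 rows with 39 symbols among 54532 named rows; Hoxd4 was listed under 2 gene identifiers. The Hoxa cluster contributed 11 rows, Hoxb 10, Hoxc 9 and Hoxd 10. RNA was sequenced in 3 wild-type and 3 Gmppb-KO libraries, both after 2 days of culture. The wild-type cells came from a commercial cell bank and were labelled as not treated. The Gmppb-KO cells came from the same line after transfection with CRISPR/Cas9 plasmids whose guides target Gmppb in exons 1 and 5, selection in puromycin at 4 µg per ml and expansion of single-cell clones, and the number of clones behind the 3 libraries was not stated. Nothing in the labels says that the 3 libraries of a genotype were separate cultures, so p-values measure the spread between these libraries, which may be technical.

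Hox genes encode transcription factors that bind DNA through a homeodomain and give cells of the embryo their position along the body axis and along the limb. They lie in 4 clusters, and within a cluster the genes at the 3′ end act in anterior structures while those at the 5′ end act in posterior and distal structures. Genes at the same place in different clusters form a paralog group with closely related homeodomains. Cultured muscle precursor cells and fibroblasts of the adult keep part of the Hox pattern of the site they came from. The C2C12 line was derived from mouse thigh muscle.

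On the mm10 build, the Hoxa members lay on chromosome 6, the Hoxb members spanned chr11:96194316-96368256, the Hoxc members chr15:102921103-103036852 and the Hoxd members chr2:74668310-74765142. Since paralogs resemble one another most in the homeobox, the exon stretch that encodes the homeodomain, homeobox sequences are given for the paralog groups that carry the main results. The sequences are from the GENCODE M21 transcripts on mm10, each is 180 bases on the coding strand, and capitals mark the positions at which the genes shown for a group do not all have the same base. In group 11, Hoxa11 (chr6:52243402-52243581, minus strand) and Hoxc11 (chr15:102956480-102956659, plus strand) were among the highest Hox genes, while Hoxd11 (chr2:74683917-74684096, plus strand) had no counts.
Hoxa11: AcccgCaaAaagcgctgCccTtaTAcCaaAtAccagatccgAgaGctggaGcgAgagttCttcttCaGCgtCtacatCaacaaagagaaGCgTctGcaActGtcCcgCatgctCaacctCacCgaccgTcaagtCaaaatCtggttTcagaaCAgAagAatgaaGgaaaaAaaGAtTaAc
Hoxc11: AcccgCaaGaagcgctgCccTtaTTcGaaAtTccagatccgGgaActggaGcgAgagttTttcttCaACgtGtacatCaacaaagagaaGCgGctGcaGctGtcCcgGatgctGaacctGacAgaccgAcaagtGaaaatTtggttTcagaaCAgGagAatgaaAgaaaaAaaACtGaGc
Hoxd11: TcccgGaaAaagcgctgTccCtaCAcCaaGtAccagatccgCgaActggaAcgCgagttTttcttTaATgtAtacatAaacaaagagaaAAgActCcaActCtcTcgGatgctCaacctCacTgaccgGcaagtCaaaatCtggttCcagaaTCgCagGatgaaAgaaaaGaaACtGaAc
In group 6, Hoxb6 (chr11:96300689-96300868, plus strand) was the only member called between the genotypes by the main edgeR test, which leaves out genes with low counts. It is shown with Hoxc6 (chr15:103010754-103010933, plus strand).
Hoxb6: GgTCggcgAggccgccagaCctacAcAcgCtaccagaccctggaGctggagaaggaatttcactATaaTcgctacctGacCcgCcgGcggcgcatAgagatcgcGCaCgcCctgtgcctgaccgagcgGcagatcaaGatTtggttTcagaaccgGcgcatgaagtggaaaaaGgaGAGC
Hoxc6: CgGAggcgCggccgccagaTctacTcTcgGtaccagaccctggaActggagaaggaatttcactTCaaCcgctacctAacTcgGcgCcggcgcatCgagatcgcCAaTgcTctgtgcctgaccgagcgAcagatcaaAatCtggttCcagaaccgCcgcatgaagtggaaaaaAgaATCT
Homeobox identity was 86.7% between Hoxa11 and Hoxc11, 80.6% between Hoxa11 and Hoxd11 and 79.4% between Hoxc11 and Hoxd11. Between Hoxb6 and its paralogs it was 85.6% for Hoxa6 and 82.8% for Hoxc6. Over whole transcripts, the longest identical run was 23 bases between Hoxb6 and Hoxa6 and 19 bases between Hoxb6 and Hoxc6, and the longest of Hoxb6 with any member of another cluster was 26 bases, with Hoxa5. Across the 42 pairs of the same paralog group in different clusters, the longest run was between 12 and 50 bases, and across the 527 other pairs between clusters it was at most 52 bases. The sequence of one cluster therefore differed from that of another within short distances, and the read length is not given in the sources used here.

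Total counts in named genes were 16011021 to 17964344 in the wild-type libraries and 17616250 to 18566759 in the Gmppb-KO libraries. Levels are CPM (read counts scaled to a common library size), with library sizes scaled by the trimmed mean of M values, and levels of different genes are compared as CPM per kilobase of the deposited gene length. A member was called detected in a genotype when all 3 libraries had at least 1 CPM. A count of 0 over the 3 libraries allows up to 3 counts, or 0.0615 CPM in wild-type against 0.0522 CPM in Gmppb-KO, and such floors and the intervals of pooled counts cover counting error only. Gmppb, the targeted gene, had 304, 310 and 409 counts in wild-type against 379, 286 and 276 in Gmppb-KO, so its messenger RNA was present in both genotypes and its count does not check the genotype labels.

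The same 10 Hox genes were detected in both genotypes, all of them in the Hoxa and Hoxc clusters. In wild-type these were Hoxa7, Hoxa9, Hoxa10, Hoxa11, Hoxc4, Hoxc6, Hoxc9, Hoxc10, Hoxc11 and Hoxc13. Gmppb-KO cells had these 10 and also Hoxa5, Hoxb4 and Hoxb6, which made 13. The Hoxc cluster held 69.2% ± 1.76 (SD, n = 3) of the summed per-length Hox level in wild-type and 68.7% ± 2.995 in Gmppb-KO. The Hoxa cluster held 29.9% ± 2.02 and 27.3% ± 2.44, and the Hoxb cluster 0.931% ± 0.269 and 4.02% ± 0.723. Hoxd held none. All Hox members together had 208.7 ± 20.6 CPM (SD, n = 3) in wild-type, against 213.5 ± 20.6 CPM in Gmppb-KO.

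**Figure D1:**
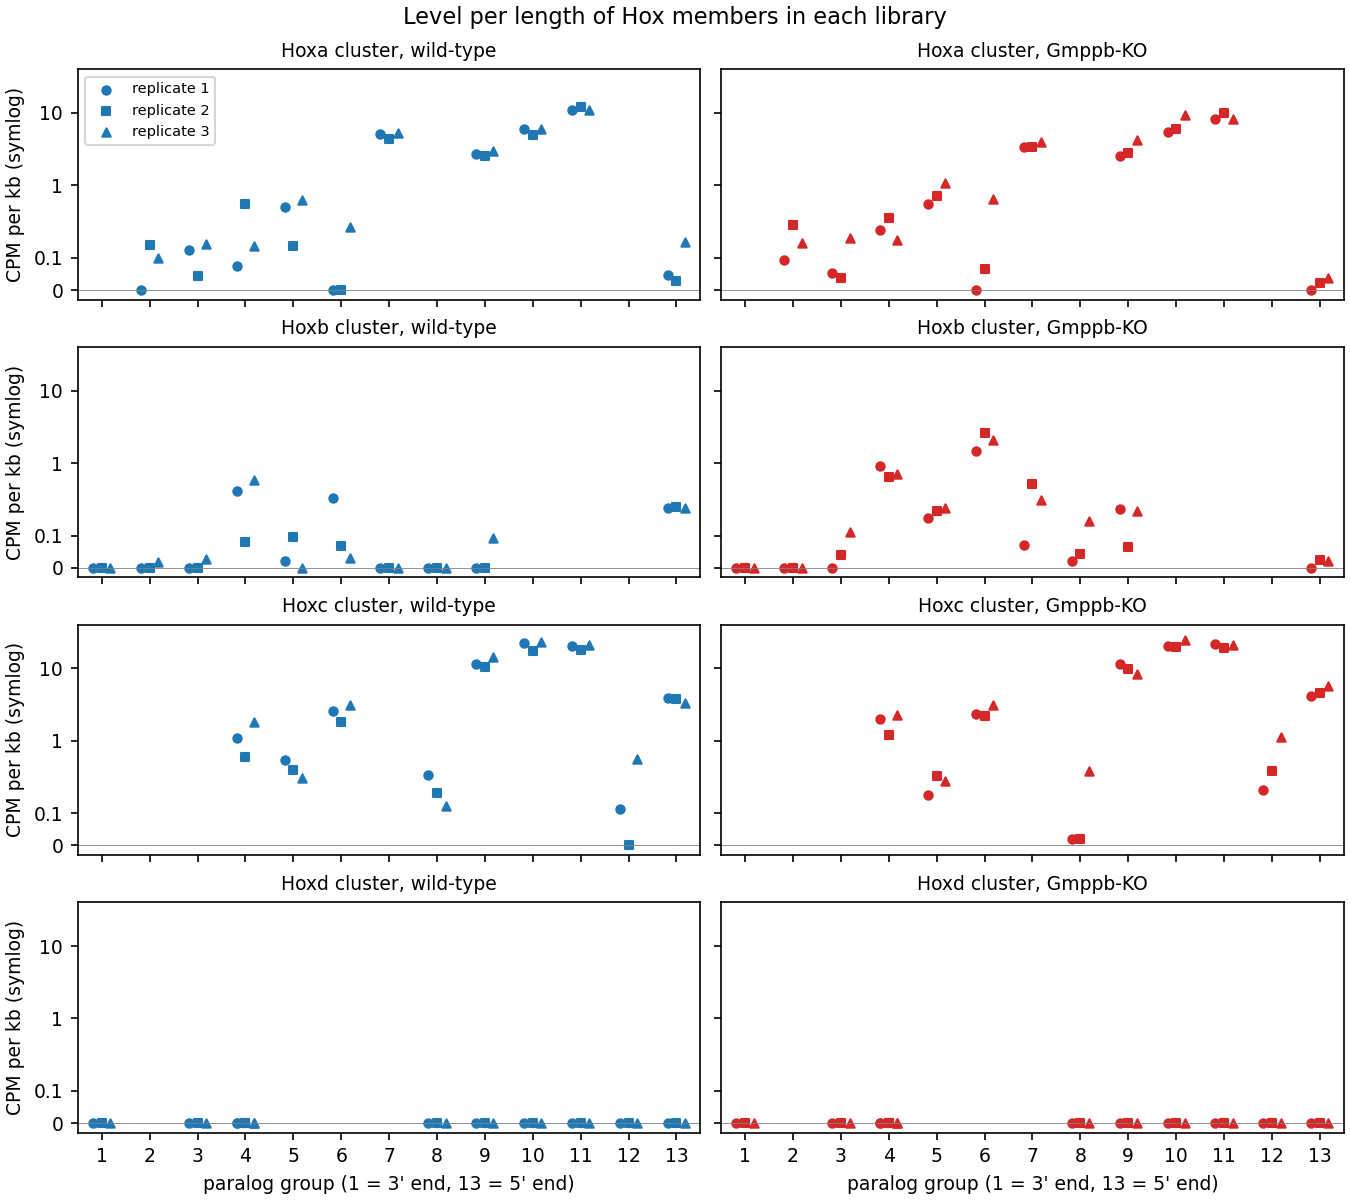
Level of the Hox members of the 4 clusters in CPM per kilobase (vertical, symmetric log scale that is linear below 0.1) against its paralog group (horizontal, from the 3′ end to the 5′ end), with 1 panel per cluster and genotype and 1 marker shape per replicate. In both genotypes the points above 10 CPM per kilobase belong to Hoxa11, Hoxc9, Hoxc10 and Hoxc11, and all Hoxd points lie at 0.

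Along the clusters, the levels were concentrated toward the 5′ end. Paralog group 11, which in the limb is known for patterning the forearm and lower leg, held 35.6% ± 2.57 (SD, n = 3) of the summed per-length level in wild-type and 32.8% ± 2.90 in Gmppb-KO. Group 10, known for patterning the upper limb segment and the lumbar region, held 30.2% ± 1.70 and 31.3% ± 2.50. Group 9 held 16.8% ± 1.14 and 14.7% ± 1.81. Groups 1, 2, 3, 8 and 12 had no detected member in either genotype.

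In the Hoxc cluster, whose 5′ genes mark the hindlimb rather than the forelimb in the vertebrate embryo, Hoxc10 had 43.2, 32.9 and 44.1 CPM in the 3 wild-type libraries and 38.6, 37.3 and 46.3 CPM in the 3 Gmppb-KO libraries. Hoxc11 had 41.5, 36.6 and 42.3 CPM against 43.6, 38.9 and 42.0 CPM. For both genes the libraries of the genotypes were interleaved, with the lowest value in wild-type replicate 2. Their log2 fold changes of Gmppb-KO over wild-type were 0.02 ± 0.21 and 0.05 ± 0.18 (SE), with edgeR Benjamini-Hochberg adjusted p of 0.954 and 0.891. The 95% intervals ran from -0.46 to 0.50 for Hoxc10 and from -0.37 to 0.47 for Hoxc11, so a 2-fold difference lay outside both. Hoxc9, a gene of the thoracic region of the trunk, had 27.5, 25.5 and 34.3 CPM against 27.6, 23.97 and 20.1 CPM. The highest of its values was in wild-type and the lowest in Gmppb-KO, the ranges overlapped, and the log2 fold change was -0.28 ± 0.23 (edgeR adjusted p = 0.481).

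Hoxc13, the most 5′ gene of its cluster and known for its role in hair and nail, had 9.68, 9.18 and 8.25 CPM in wild-type against 10.1, 11.1 and 13.96 CPM in Gmppb-KO. Every Gmppb-KO library lay above every wild-type library, but the log2 fold change of 0.38 ± 0.27 did not pass the edgeR test (adjusted p = 0.426). Hoxc6, an anterior trunk gene, had 6.12, 4.39 and 7.49 CPM against 5.66, 5.26 and 7.54 CPM, and the genotypes overlapped throughout this range. The most 3′ detected gene of the cluster, Hoxc4, had 2.79, 1.55 and 4.68 CPM against 5.11, 3.08 and 5.75 CPM. The overlap was limited to wild-type replicate 3 and Gmppb-KO replicate 2, and the log2 fold change was 0.62 ± 0.47 (edgeR adjusted p = 0.453). Between these genes the cluster had gaps. Hoxc8, which lies between Hoxc6 and Hoxc9, had 16, 8 and 6 counts in wild-type against 1, 1 and 23 in Gmppb-KO, and Hoxc12, which lies between Hoxc11 and Hoxc13, had 2, 0 and 10 counts against 4, 7 and 25. Hoxc5 had 28, 18 and 16 counts against 10, 18 and 18, and its annotated exons share 166 bases with those of Hoxc10 on the same strand.

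In the Hoxa cluster, Hoxa11 was the highest member. It had 25.0, 27.4 and 25.4 CPM in wild-type against 18.9, 23.0 and 18.9 CPM in Gmppb-KO. No Gmppb-KO library reached the lowest wild-type library, yet the log2 fold change of -0.36 ± 0.21 did not pass the edgeR test (adjusted p = 0.357). Of the annotated Hoxa11 exon bases, 35.0% are shared with Hoxa11os, a non-coding transcript on the opposite strand, and the library kit named in the labels does not mark strand, so reads of the 2 genes there cannot be told apart. Hoxa10 had 19.4, 16.3 and 19.5 CPM against 18.01, 19.7 and 31.02 CPM. Gmppb-KO replicate 3 stood above the other 5 libraries, which overlapped. Hoxa9, best known for its role in blood progenitors, had the same form, with 15.3, 14.3 and 16.6 CPM against 14.3, 15.6 and 23.4 CPM. The log2 fold changes were 0.32 ± 0.27 for Hoxa10 and 0.20 ± 0.27 for Hoxa9 (edgeR adjusted p = 0.505 and 0.664). Gmppb-KO replicate 3 also had the highest scaling factor, 1.206, and the highest summed Hox level, 237.4 CPM. Over all tested genes, its Pearson's r of log2 level with Gmppb-KO replicates 1 and 2 was 0.940 and 0.959. Between replicates 1 and 2 it was 0.985, so the departure of replicate 3 was not limited to these genes.

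Hoxa7, the most 3′ detected Hoxa gene of wild-type cells, had 14.9, 12.4 and 15.1 CPM in wild-type against 9.85, 9.63 and 11.5 CPM in Gmppb-KO. All Gmppb-KO values lay below all wild-type values, and the log2 fold change was -0.45 ± 0.25 (edgeR adjusted p = 0.335). Of its exon bases, 20.4% are shared with the opposite-strand transcript Hoxaas3. On the 3′ side of Hoxa7 the levels dropped. Hoxa5 had 16, 4 and 20 counts in wild-type against 19, 24 and 43 in Gmppb-KO, overlapping between the genotypes. Hoxa3 had 13, 4 and 16 counts against 6, 4 and 24, and Hoxa2, Hoxa4 and Hoxa6 had at most 13 counts in any library. At the far 5′ end, Hoxa13, which patterns the hand and foot, had at most 7 counts in a library, 10 in all wild-type libraries together and 3 in all Gmppb-KO libraries together.

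The order of the 10 shared genes by level per kilobase was the same in both genotypes except that Hoxa7 and Hoxc13 exchanged ranks 6 and 7. In wild-type the order ran from Hoxc10 at 20.98 ± 3.24 CPM per kilobase (SD, n = 3) through Hoxc11 at 19.9 ± 1.51, Hoxc9 at 11.97 ± 1.90, Hoxa11 at 11.3 ± 0.56 and Hoxa10 at 5.62 ± 0.564 to Hoxc4 at 1.17 ± 0.614. In Gmppb-KO the same genes had 21.3 ± 2.55, 20.5 ± 1.19, 9.83 ± 1.55, 8.85 ± 1.03, 7.01 ± 2.16 and 1.81 ± 0.543. Neighbours in this order were often not separated: the ranges of the libraries overlapped in 5 of 9 neighbouring pairs in wild-type and in 7 of 9 in Gmppb-KO. Hoxc10 and Hoxc11 were not separated in either genotype, nor were Hoxc9 and Hoxa11, while the step from Hoxc11 down to Hoxc9 was free of overlap in both. Over these 10 genes, Pearson's r between the genotype means of log2 level was 0.972 and Spearman's rho 0.988, as a description of genes that share libraries and gene lengths. Pairs of libraries from different genotypes had r between 0.913 and 0.986, against 0.958 to 0.989 within wild-type and 0.958 to 0.979 within Gmppb-KO. Over all 12786 tested genes, Hox or not, r was 0.875 to 0.958 between genotypes, 0.966 to 0.989 within wild-type and 0.940 to 0.985 within Gmppb-KO. Over the 29 Hox members with any count it was 0.866 to 0.944, 0.940 to 0.964 and 0.955 to 0.978. Among these members most pairs from different genotypes had lower r than every pair from the same genotype.

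**Figure D2:**
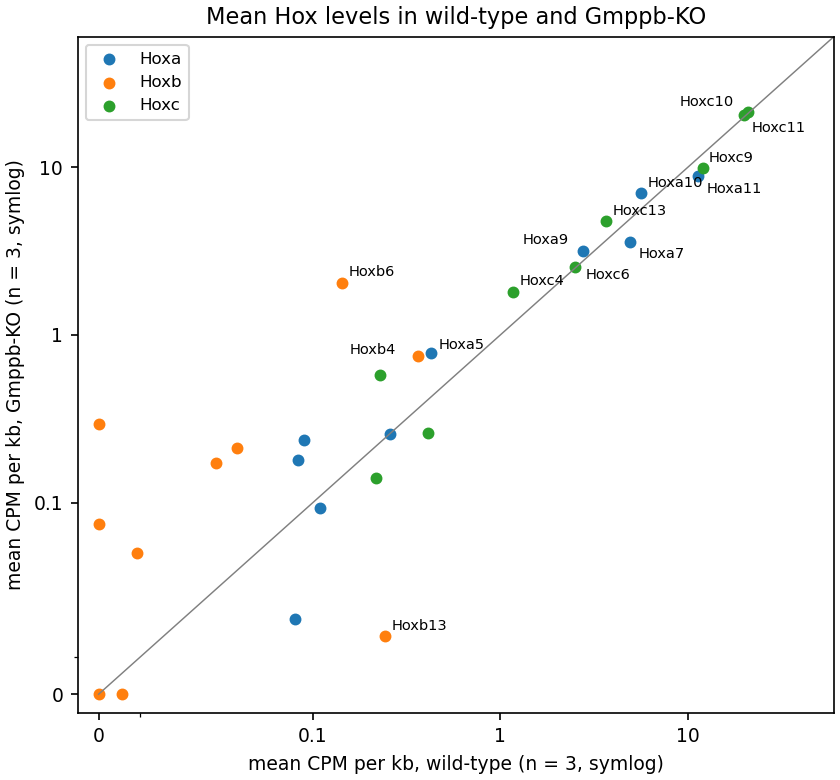
Mean level per kilobase of Hoxa, Hoxb and Hoxc members in Gmppb-KO (vertical) against wild-type (horizontal), n = 3 libraries each, on symmetric log scales, with the line of equal levels. The 10 genes detected in both genotypes lie close to the line, while Hoxb6 lies above it and Hoxb13 below it.

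Of the 40 members, 29 had a count in some library and 16 passed the low-count filter of edgeR. The test called 715 of 12786 genes, or 5.59%, with 297 higher (2.32%) and 418 lower (3.27%) in Gmppb-KO. Of the 16 tested Hox members it called 1, Hoxb6, which was higher, and the same 1 had an unadjusted p under 0.05, against 20.1% of all tested genes. The libraries of the genotypes did not overlap for 5 of the 16, with Hoxb4, Hoxb6 and Hoxc13 higher and Hoxa7 and Hoxa11 lower in Gmppb-KO, against 26.1% of all tested genes, 13.1% in the higher and 13.0% in the lower direction. Members that passed the filter through the genotype where they were high are part of these counts. Among the 10 genes detected in both genotypes, 0 were called by edgeR, 0 had an unadjusted p under 0.05, and 0 were called by DESeq2 or limma voom. These 10 had to reach 1 CPM in every library of both genotypes, which keeps out genes with large changes such as Hoxb6, so their count of 0 is a description and is not set against other genes. Their log2 fold changes ran from -0.45 for Hoxa7 to 0.62 for Hoxc4. The intervals of 8 of the 10 excluded a 2-fold difference in either direction, and those of Hoxa7, with a lower bound of -1.02, and Hoxc4, with an upper bound of 1.70, did not. The median log2 fold change of all tested genes was 0.11, and the values near 0 of Hoxc6, Hoxc10 and Hoxc11 changed sign under other scalings.

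**Figure D3:**
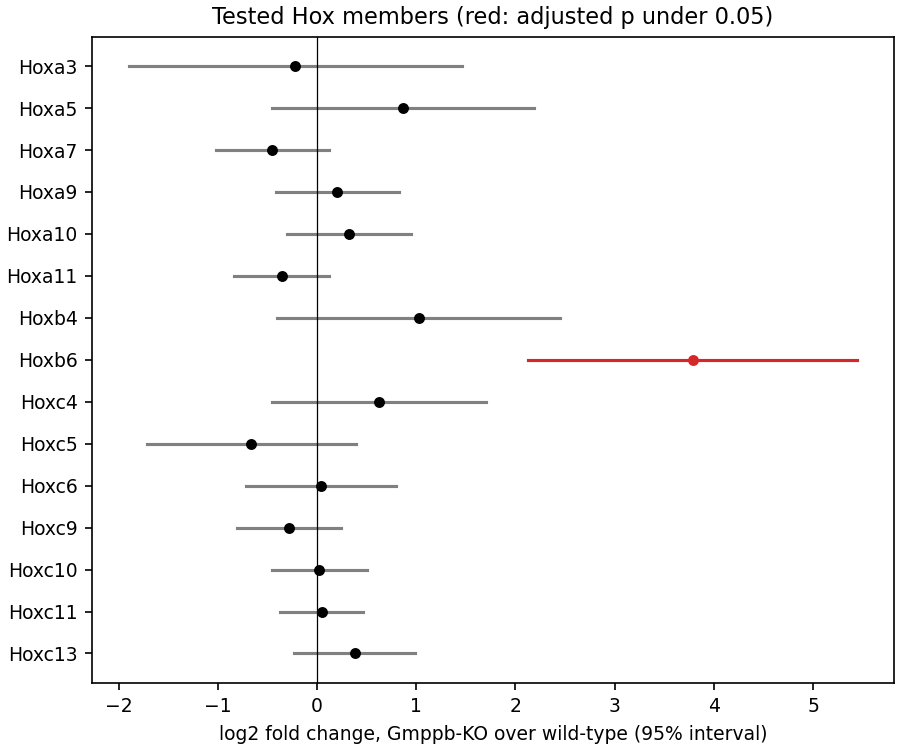
Log2 fold change of Gmppb-KO over wild-type (horizontal) of 15 of the 16 tested Hox members, with 95% intervals from the edgeR fit on 3 against 3 libraries and the called member in red. Hoxb6 at 3.79 stands apart, and the intervals of the other 14 members shown include 0.

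The called member lay in the Hoxb cluster, which had the lowest levels apart from Hoxd. Hoxb6, an anterior trunk gene, had 11, 2 and 1 counts in wild-type against 53, 90 and 88 in Gmppb-KO, or 0.653, 0.135 and 0.0585 CPM against 2.88, 5.04 and 4.15 CPM. The lowest Gmppb-KO library was several times the highest wild-type library. The log2 fold change was 3.79 ± 0.72 (SE; 95% interval 2.13 to 5.45; edgeR adjusted p = 0.0197), and the ratio of pooled counts was 14.0 (95% exact binomial interval 8.18 to 26.0). Hoxb6 entered the tested set through its counts in Gmppb-KO. Left out in turn, wild-type replicate 2 and Gmppb-KO replicate 2 each ended the call, at log2 fold changes of 3.43 and 3.60 with edgeR adjusted p of 0.0726 and 0.0729, and without wild-type replicate 1, which held most of the wild-type counts, the value was 5.30. No other annotated exon overlaps Hoxb6. In Gmppb-KO its level was 2.05 ± 0.552 CPM per kilobase (SD, n = 3), between those of Hoxc4 at 1.81 and Hoxc6 at 2.56 and below that of Hoxc10 at 21.3. In bulk RNA, fewer cells with a transcript and less of it per cell cannot be told apart.

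Hoxb4, the most 3′ detected Hoxb gene of Gmppb-KO cells, had 1.07, 0.202 and 1.52 CPM in wild-type against 2.34, 1.62 and 1.79 CPM in Gmppb-KO. The groups did not overlap, although wild-type replicate 3 and Gmppb-KO replicate 2 were close, and the log2 fold change was 1.02 ± 0.62 (edgeR adjusted p = 0.370). The genes around Hoxb6 were too low for the main test. Hoxb7 had 0 counts in every wild-type library and 2, 14 and 10 in Gmppb-KO, which was at least 7.35-fold higher against a floor of 3 counts over the wild-type group with the Gmppb-KO counts taken as they are, and the lower bound of the 95% exact binomial interval of the ratio was 5.57. Hoxb8 likewise had 0 counts in wild-type, against 1, 2 and 9, at least 3.39-fold higher against the same floor, with a lower bound of 2.36 for the exact interval. Both sums came from few reads, and Gmppb-KO replicate 1 was the lowest of its group for both.

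Hoxb5 had 1, 4 and 0 counts in wild-type against 9, 11 and 14 in Gmppb-KO, a pooled ratio of 5.77 (95% exact binomial interval 2.25 to 18.9). Hoxb9 had 0, 0 and 4 counts against 11, 3 and 12, with a ratio of 5.52 (1.91 to 21.8). For Hoxb5 the genotypes did not overlap, and for Hoxb9 wild-type replicate 3 was above Gmppb-KO replicate 2. Hoxb3 had 0, 0 and 2 counts against 0, 3 and 10, with a ratio of 5.52 (1.25 to 50.3), Hoxb2 had 1 count in all, and Hoxb1 had none. Hoxb13, which lies apart from the other Hoxb genes at the 5′ end and is known from prostate and tail, had the opposite order, with 9, 8 and 9 counts in wild-type against 0, 1 and 1 in Gmppb-KO. Its pooled ratio of wild-type over Gmppb-KO was 15.3 (3.84 to 133). With no low-count filter, edgeR gave an adjusted p of 0.0367 for Hoxb7 and 0.0645 for Hoxb13, and DESeq2 gave 0.0512 and 0.0611. In the same settings Hoxb8 had 0.198 and 0.329, Hoxb5 0.219 and 0.252, Hoxb9 0.327 and 0.366, and Hoxb3 0.517 and 0.593, so none of these passed although their counting intervals excluded a ratio of 1. Summed over the cluster, Hoxb members had 2.32, 1.15 and 2.52 CPM in wild-type against 6.47, 8.57 and 8.58 CPM in Gmppb-KO, and without Hoxb6 they had 1.66, 1.01 and 2.46 CPM against 3.59, 3.53 and 4.43 CPM.

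**Figure D4:**
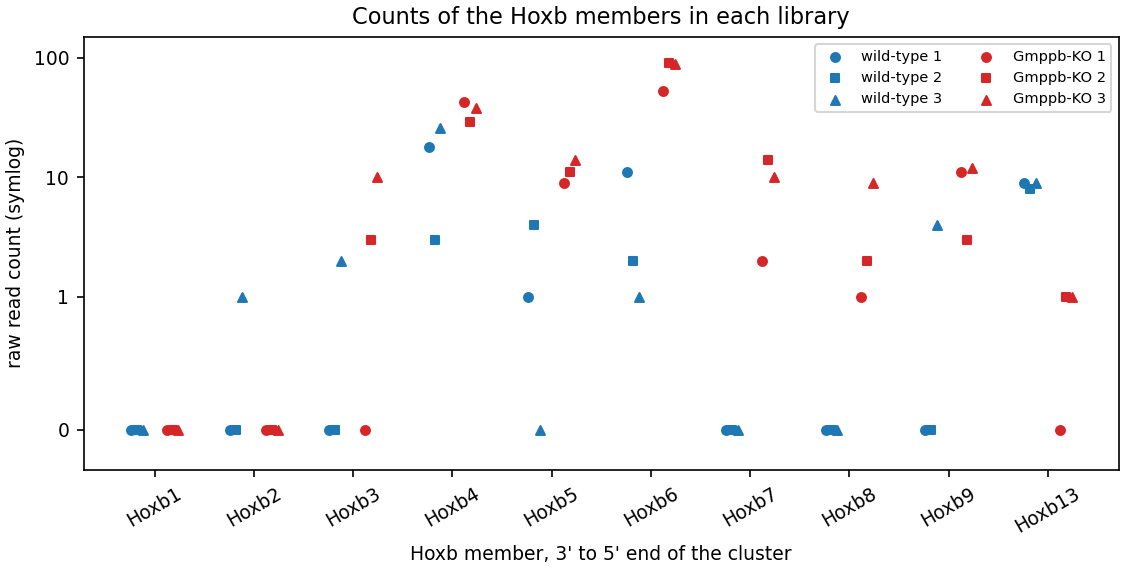
Raw read counts (vertical, symmetric log scale that is linear below 1) of the 10 Hoxb members from the 3′ to the 5′ end of the cluster (horizontal) in each library, wild-type in blue and Gmppb-KO in red. Hoxb6 has 53 to 90 counts in Gmppb-KO and 1 to 11 in wild-type, and Hoxb13 shows 8 to 9 counts in wild-type against 0 to 1 in Gmppb-KO.

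In the Hoxd cluster, whose 5′ genes pattern the limb together with the Hoxa genes, all 10 rows had 0 counts in all 6 libraries. The 10 other annotated rows within its span also had 0 counts, as did Evx2, the homeobox gene next to Hoxd13. The genes farther out were read in every library, with Lnpk at 134 to 234 counts in wild-type against 160 to 630 in Gmppb-KO, and Mtx2 at 399 to 484 and 406 to 1022. Among the 24 nearest named protein-coding neighbours of the 4 clusters, 19 were tested and 0 were called by edgeR, 1 with an unadjusted p under 0.05, against 5.59% and 20.1% of all tested genes. DESeq2 and limma voom also called 0, while edgeR called 1 (Cbx3) with no low-count filter and 3 (Cbx3, Atp5g1 and Atp5g2) with the replicate block. That block raised the calls over all 12786 tested genes from 715 to 1618. The shares of 5.59% and 20.1% are those of the main edgeR test. The DESeq2 and limma voom counts are not set against shares of their own. Atp5g1 and Skap1, neighbours of the Hoxb cluster, had 4156 to 10644 and 0 to 7 counts in wild-type against 2844 to 5639 and 0 to 4 in Gmppb-KO.

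Of the non-coding transcripts within the clusters, Hoxa11os had 425, 487 and 355 counts in wild-type against 230, 294 and 224 in Gmppb-KO, or 26.3 ± 6.11 CPM (SD, n = 3) against 13.2 ± 3.01 CPM. Each Gmppb-KO library was below each wild-type library, as for Hoxa11 itself. Its log2 fold change was -0.996 ± 0.28 with an edgeR adjusted p of 0.0891, while DESeq2 called it at 0.0173. Hotairm1, at the 3′ end of the Hoxa cluster, had 2.61 ± 0.154 CPM against 2.76 ± 0.73 CPM. Hotair, the long non-coding RNA between Hoxc12 and Hoxc11, had 1.09 ± 0.233 CPM against 1.32 ± 0.789 CPM. The processed pseudogene Gm11539 in the Hoxb span had 1.36 ± 0.914 CPM against 0.936 ± 0.21 CPM. For these 3 transcripts the genotypes overlapped.

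Genes that act with or on Hox genes were counted from lists. Hox proteins bind DNA together with TALE homeodomain partners, and of 9 such genes tested, 0 were called by edgeR, 2 had an unadjusted p under 0.05, and the count was 1 with DESeq2 and 0 with limma voom. The one called by DESeq2 was Pbx2, with 36.0, 31.4 and 39.1 CPM in wild-type against 21.2, 23.8 and 20.7 CPM in Gmppb-KO (log2 fold change -0.70 ± 0.20; edgeR adjusted p = 0.0989). Polycomb proteins keep Hox genes silent and the MLL and Trithorax proteins keep them active. Of 28 Polycomb genes tested, 0 passed in edgeR and 7 had an unadjusted p under 0.05, while 2 passed in DESeq2 and 0 in limma voom. Of 18 MLL and Trithorax genes, edgeR, DESeq2 and limma voom each called 0, with 3 at an unadjusted p under 0.05 in edgeR. Across all tested genes edgeR called 5.59%, and 20.1% had an unadjusted p under 0.05 in edgeR. The DESeq2 and limma voom counts have no such share beside them and are given as a description.

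The list of Cdx, Gdf11 and retinoic acid genes, which set Hox expression in the embryo, had 12 tested genes of 20, with 1 higher and 2 lower in Gmppb-KO, against the same shares of 2.32% and 3.27% of all tested genes. Aldh1a1, which makes retinoic acid, rose from 0, 0 and 2 counts to 80, 78 and 73 counts (log2 fold change 6.41 ± 0.77; edgeR adjusted p = 0.00268), a ratio of pooled counts of 98.0 (95% exact binomial interval 26.8 to 814). Crabp2, a carrier of retinoic acid in the cell, fell from 47.5, 46.2 and 49.8 CPM to 23.8, 26.8 and 14.8 CPM (-1.14 ± 0.26; edgeR adjusted p = 0.0396). In neither of these genes did the genotypes overlap. Aldh1a1 passed the low-count filter through its counts in Gmppb-KO, and members that passed in this way are part of the counts above. The call of Crabp2 was lost without any library but Gmppb-KO replicate 3 (edgeR adjusted p 0.0591 to 0.165), while Aldh1a1 was called in all 6 cases. Cdx2, Cdx4 and Rxrg had 0 counts in all libraries, and Gdf11, which helps to switch on posterior Hox genes, had 470 to 666 counts in wild-type against 578 to 929 in Gmppb-KO.

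Of the other transcription factors that mark limb and body position, 15 of 25 were tested, with 2 higher and 2 lower in Gmppb-KO, against 2.32% and 3.27% of all tested genes. Tbx4, a hindlimb factor, rose from 1, 0 and 5 counts to 25, 21 and 30 (log2 fold change 3.37 ± 0.79; edgeR adjusted p = 0.0464), and Emx2, known from the shoulder blade and the brain, rose from 1, 0 and 0 counts to 22, 13 and 15 (5.00 ± 0.89; edgeR adjusted p = 0.0145), a ratio of pooled counts of 42.4 (95% exact binomial interval 7.27 to 1709). Pitx3, a factor of skeletal muscle and midbrain neurons, fell from 89, 66 and 63 counts to 2, 3 and 0 (-5.55 ± 0.70; edgeR adjusted p = 0.00319), and Lhx9, a limb bud and gonad factor, fell from 20, 21 and 16 counts to 3, 1 and 5 (-2.87 ± 0.59; edgeR adjusted p = 0.0265). All 4 were free of overlap between the genotypes, and Tbx4, Emx2 and Lhx9 had at most 30 counts in any library. All 4 passed the low-count filter through the genotype where they were high. Their count beside the shares above is therefore a description. The call of Tbx4 was lost without any library but wild-type replicate 3 (edgeR adjusted p 0.0800 to 0.227), that of Lhx9 without replicate 1 or 2 of either genotype (0.0612 to 0.123) and that of Emx2 without any wild-type replicate (0.0551 to 0.0632). The forelimb factor Tbx5 and the hindlimb factor Pitx1 had 0 counts in all 6 libraries.

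Markers of cell type were read in the same libraries as the Hox genes. Of 7 myoblast markers 4 were lower in Gmppb-KO (Myod1, Pax7, Myog and Chrna1) and 0 higher, against 3.27% and 2.32% of all tested genes. Myf5 had 26.7, 29.4 and 12.9 CPM in wild-type against 29.2, 48.7 and 93.7 CPM in Gmppb-KO (log2 fold change 1.32 ± 0.46; edgeR adjusted p = 0.168) and was called higher with no low-count filter. The call of Chrna1 was lost without replicate 1 or 2 of wild-type or of Gmppb-KO (edgeR adjusted p 0.0552 to 0.144). Myod1, a master regulator of the muscle lineage, fell from 2689, 2418 and 2596 counts to 6, 10 and 10 (log2 fold change -8.43 ± 0.28; edgeR adjusted p = 1e-05). The summed level of the 7 markers was 4373 to 6089 CPM in wild-type against 2477 to 4407 CPM in Gmppb-KO. Such a sum follows the most abundant markers and says little of the others. Of 6 tested markers of fibroblasts and fibro-adipogenic cells 3 were higher (Dcn, Col1a1 and Postn; that of Dcn was lost without wild-type replicate 1, edgeR adjusted p = 0.0562), with Col1a1 at 129 to 188 CPM against 1132 to 1732 CPM, and the summed level of the 8 listed was 1127 to 1315 CPM against 2962 to 4088 CPM; Lum had 0 counts in all libraries. Over all tested genes 2.32% were higher, and Pdgfra on the same list had 1.84, 1.96 and 2.93 CPM against 0.707, 1.29 and 2.26 CPM (-0.65 ± 0.50; edgeR adjusted p = 0.462). Pecam1, Cdh5, Epcam, Sox10, Adipoq and Acan had 0 counts in all libraries, and of the 15 markers of other cell types 4 were tested (Cd68, Sox9, Runx2 and Fabp4) and 1 was called, Fabp4, with 0 counts in wild-type against 14 to 24 in Gmppb-KO, a call lost when either replicate 1 of wild-type or replicate 2 of Gmppb-KO was left out (edgeR adjusted p = 0.0562 and 0.0681). Fabp4 passed the low-count filter through its counts in Gmppb-KO, and Myod1 through its counts in wild-type. Such members are part of the counts of their lists. The marker differences moved with the genotype as Hoxb6 did, and their part in the Hoxb values was not tested. The Gmppb-KO cells had also gone through puromycin selection and single-cell cloning, so genotype, selection and clone cannot be told apart for Hoxb6 or the markers. As a further trait of the line, Ddx3y, Kdm5d, Eif2s3y and Uty of the Y chromosome had 0 counts in all 6 libraries, and Xist had 275, 190 and 328 counts in wild-type against 125, 510 and 3041 in Gmppb-KO.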

How the data were processed

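RNA from 3 wild-type and 3 Gmppb-KO libraries was analysed from 1 table deposited by the authors. It holds raw read counts of each gene in each library, which the authors deposited as whole numbers, without normalization. The deposited FPKM of each library were used only as an alternative unit. Per the submitters' processing notes, FastQC, HISAT2, Subread, featureCounts and DESeq2 were used on mm10; annotation release and strand setting were not given in the sources used. The 201 loci without a gene name, 0.0699% to 0.195% of a library's counts, were left out.

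The genotypes were compared by the 2-sided quasi-likelihood F test of edgeR 4.0.16 (R 4.3.3) with genotype as the only term, after filterByExpr and scaling by the trimmed mean of M values, with Benjamini-Hochberg adjustment over all tested genes and a threshold of 0.05. The steps were also run on simulated counts. Alternatives were DESeq2 1.42.0, limma 3.58.1 (voom, and log2(FPKM + 1)), other scalings, filters and detection thresholds, a replicate block, and leaving out each library; those for the non-coding transcripts and gene lists were added after seeing the data. Exons and homeoboxes came from GENCODE M21, which holds 39 of the 40 rows, 38 with identical coordinates. Every library is given for called members, members with a mean of at least 5 CPM and the outermost detected members of a cluster; also named are up to 4 called genes per list, 3 neighbours per side of a cluster, and non-coding rows called or with a mean of at least 1 CPM. Some items that meet this rule are not reported here. Members, lists and this rule were chosen with earlier results of these data known. Genes outside the rule, such as Pbx2, Gdf11, Myf5, Pdgfra and Xist, were named after their values were seen.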

Additional observations from a re-analysis of the deposited data

How the results depend on the processing

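The count of called genes was 715 in the main test and 1618 with the replicate block, each of 12786 tested. It was 1292 with DESeq2 and 1419 with no low-count filter, each of 21251 tested. When single libraries were left out it was 331 to 749. Called Hox members numbered 1 of 16 tested in the main test and 2 of 29 (Hoxb6 and Hoxb7) with no low-count filter. Without single libraries they numbered 0 to 1 of 17 to 21 tested. Hoxb6 was higher in Gmppb-KO under all 15 alternatives, by 1.38 to 5.30 on the log2 scale, and the detected members, 10 in wild-type, 13 in Gmppb-KO and 10 in both, became 9 to 13, 11 to 15 and 9 to 12 under other detection rules or without single libraries.

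Signs changed near 0 as follows, all on the log2 scale. Hoxc6 was -0.026 with DESeq2, -0.036 with RLE scaling, -0.002 with upper quartile scaling, -0.034 with no filter and -0.011 on log2(FPKM + 1). In the same order Hoxc10 was -0.040, -0.051, -0.015, -0.046 and -0.033, and Hoxc11, without the upper quartile, was -0.015, -0.026, -0.019 and -0.014. Hotairm1 was -0.007 on log2(FPKM + 1). Without single libraries the ranges crossing 0 were -1.295 to 0.146 for Hoxa3, -0.097 to 0.292 for Hoxa9, -0.013 to 0.417 for Hoxa10, -0.184 to 0.144 for Hoxc6, -0.134 to 0.085 for Hoxc10, -0.073 to 0.094 for Hoxc11, -0.156 to 0.230 for Hotairm1, -1.018 to 0.033 for Gm11539 and -0.297 to 0.559 for Hotair. The cause was not tested.

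Without division by gene length, the Hoxa cluster held 37.1% in wild-type and 35.1% in Gmppb-KO and Hoxc 61.9% and 61.2%. Replicate numbers are not shown to pair the libraries, and the labels state no pairing. Same-numbered libraries had correlations of deviations of -0.179, 0.508 and 0.42, and different-numbered libraries had -0.544 to 0.294. With the replicate block, Hoxb6 stayed the only called Hox member (3.93; edgeR adjusted p = 0.0177), and Hoxa11os was called (-0.995; edgeR adjusted p = 0.0220). Of the genes of limb and body position 7 were called, against 4, while calls over all 12786 tested genes rose from 715 to 1618. For Hoxb4 the 95% interval over libraries ran from -0.40 to 2.45 on the log2 scale and included equal levels. The counting interval of its pooled ratio, given as a plain ratio and not in log2, was 1.40 to 2.86 and excluded equal levels. The first interval takes in the spread between libraries, and the second covers counting error only.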
